A study of Mus musculus with 16 samples.

Results

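Steroid hormone receptors were followed as a group of 6 genes out of the 30743 genes measured. They were Esr1 and Esr2 (oestrogen receptors alpha and beta), Gper1 (a membrane oestrogen receptor coupled to G proteins), Pgr (the progesterone receptor), Nr3c1 (the glucocorticoid receptor) and Nr3c2 (the mineralocorticoid receptor). The genes were chosen by name, and each was read by 1 probeset, a set of probes summarised to 1 value, so no choice between probesets was needed. Each of 16 female mice gave 1 array, hybridised with RNA of a glomerular extract from the kidney cortex. The wild type mice were C57Bl/6 and the knockout mice were B6.ERαKO, on the same background. Nephrotoxic serum, raised in sheep against the glomerular basement membrane to start nephritis, was injected into the peritoneum at 8 ul per g. Each genotype had 2 untreated mice and 2 mice at each of 18 hours, 6 days and 2 weeks after the injection. The sources used here give neither the age of the mice nor the knockout allele and the part of Esr1 it removes, so the Esr1 probeset cannot check the genotype labels. The series asked how oestrogen receptor alpha acts on lipid metabolism and on glomerulonephritis.

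Nuclear steroid receptors are transcription factors that wait with chaperones such as Hsp90, bind their hormone, pair up and attach to response elements in DNA. Oestrogen receptor alpha is the main oestrogen receptor of the mouse kidney, the progesterone receptor gene is a textbook target of it in the uterus, and Gper1 signals from membranes without binding DNA. In the kidney the glucocorticoid receptor is made by most cell types, and the mineralocorticoid receptor acts mainly in the distal nephron, where aldosterone drives sodium uptake.

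The start regions of Esr1 and Nr3c2 are printed because these receptors varied most between arrays. The windows are 300 bases long, end 50 bases after an annotated start and are RefSeq sequences on build GRCm38.p6. Capitals mark the core of an oestrogen response element, GGTCA or its reverse complement TGACC. The Esr1 windows lie on the plus strand at chr10:4611739-4612038 (start 1) and chr10:4709908-4710207 (start 2), and the Nr3c2 window lies on the plus strand at chr8:76902080-76902379.
Esr1 start 1: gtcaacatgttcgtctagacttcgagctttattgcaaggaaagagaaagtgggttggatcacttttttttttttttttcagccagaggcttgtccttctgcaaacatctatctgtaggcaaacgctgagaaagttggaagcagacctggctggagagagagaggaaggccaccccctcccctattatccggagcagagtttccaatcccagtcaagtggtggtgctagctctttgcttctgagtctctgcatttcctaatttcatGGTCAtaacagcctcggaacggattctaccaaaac
Esr1 start 2: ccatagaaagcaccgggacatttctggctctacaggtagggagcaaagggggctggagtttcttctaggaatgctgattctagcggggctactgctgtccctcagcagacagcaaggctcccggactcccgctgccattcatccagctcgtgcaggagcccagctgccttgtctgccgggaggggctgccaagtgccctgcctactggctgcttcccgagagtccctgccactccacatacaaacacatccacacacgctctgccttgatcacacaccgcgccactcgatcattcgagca
Nr3c2: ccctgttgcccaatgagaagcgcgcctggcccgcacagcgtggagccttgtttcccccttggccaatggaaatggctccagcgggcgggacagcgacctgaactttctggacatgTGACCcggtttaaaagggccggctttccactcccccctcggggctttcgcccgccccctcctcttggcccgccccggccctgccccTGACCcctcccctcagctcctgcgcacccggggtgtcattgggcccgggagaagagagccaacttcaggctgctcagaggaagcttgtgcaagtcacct
The first Esr1 window held 1 core and the second none, and the Nr3c2 window held 2. Of all 32851 windows in the reference table, 40.5% held at least 1 such core on either strand. The core also occurs inside the whole palindrome GGTCANNNTGACC, which was found in 0.07% of windows and in none of those of Esr1, Esr2, Gper1, Pgr and Nr3c2. The windows of Esr2 held 2 cores, and those of Gper1 and Pgr held none. The glucocorticoid core AGAACA or TGTTCT, present in 19% of windows, and its palindrome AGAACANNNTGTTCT, present in 0.00913%, were not in any of these windows. The Nr3c1 window was not used.

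Arrays were checked first against marker genes. The mean over 13 podocyte markers was 8.87 to 10.98 in deposited log2 units and that over 14 proximal tubule markers was 13.35 to 16.44, so every extract held RNA of tubules beside that of glomeruli. Across 16 genes known to be higher in male mouse kidney, the mean was 9.54 to 10.16 in 7 wild type arrays and 12.13 to 16.08 in 7 knockout arrays. The array labelled wild type 18 hours replicate 2 had 15.59 and that labelled knockout 18 hours replicate 2 had 9.36, each with the other genotype. Genotype averages and 18-hour differences of the receptors are therefore given also over the other 14, with 1 array per genotype at 18 hours that the fit takes to vary like the other groups. Since the 2 arrays were left out by these genes, a result over 14 arrays for a gene that moves with them is a description. Knockout 2 weeks replicate 1 had a tubule injury marker mean of 7.54, where its replicate had 9.59 and untreated arrays had 7.56 to 7.92.

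**Figure D1:**
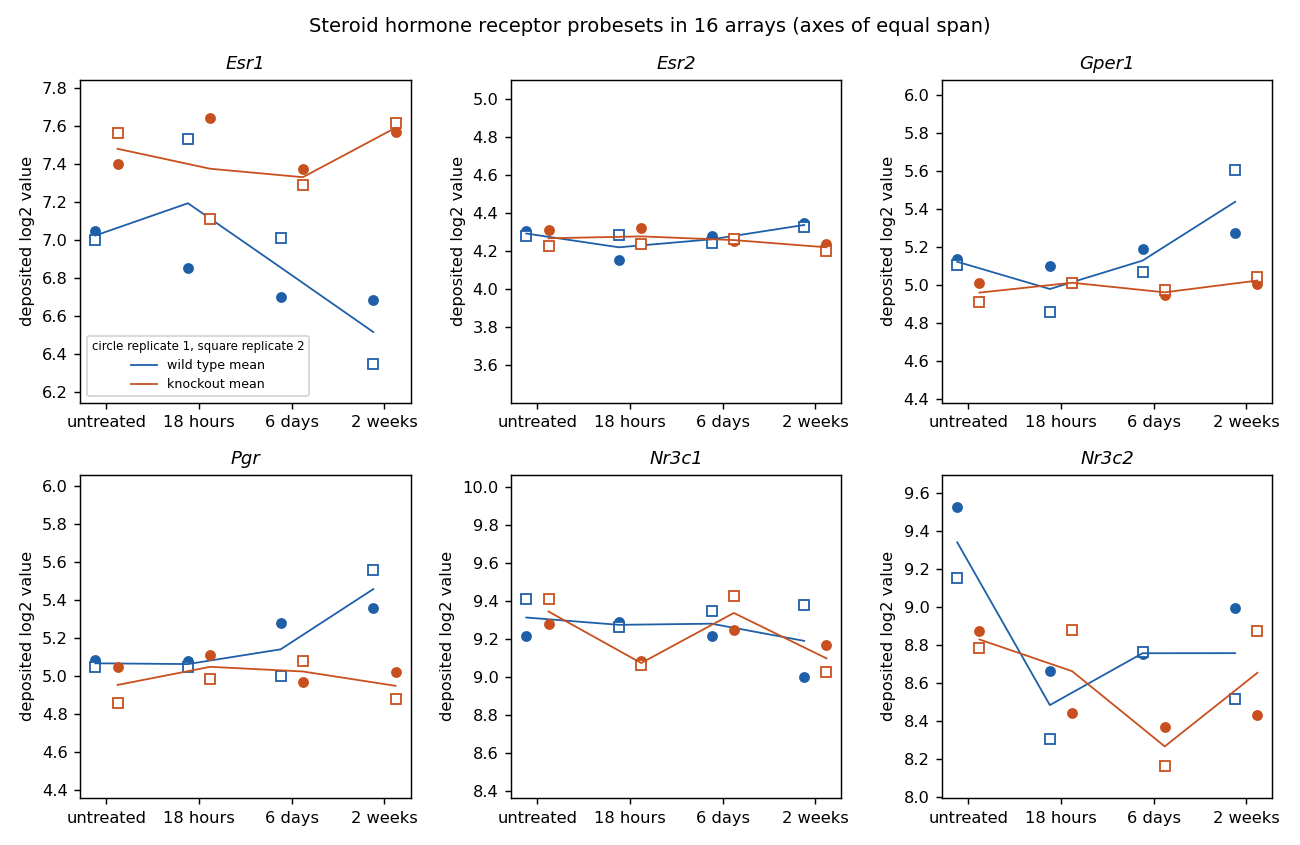
Deposited log2 value (vertical axes, each panel with its own range and all of equal span) of the 6 receptors in each of the 16 arrays, by time after serum, with the genotypes in different colours filled circles for replicate 1, open squares for replicate 2 and lines through the group means of 2 arrays. Esr1 lay at 6.35 to 7.53 in wild type arrays and 7.11 to 7.64 in knockout arrays, and Nr3c2 had its highest values, 9.53 and 9.16, in untreated wild type mice.

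Esr1 had higher values in knockout arrays at most times, a difference called over 14 arrays and not over all 16. The wild type values were 7.04 and 7.0 untreated, 6.85 and 7.53 at 18 hours, 6.70 and 7.01 at 6 days, and 6.68 and 6.35 at 2 weeks. The knockout values were 7.40 and 7.56 untreated, 7.64 and 7.11 at 18 hours, 7.37 and 7.29 at 6 days, and 7.57 and 7.61 at 2 weeks. At every time but 18 hours both knockout arrays lay above both wild type arrays. Genotypes were apart in either direction for 45.9% of genes untreated, 36.4% at 6 days and 36.7% at 2 weeks. At 18 hours wild type replicate 2, at 7.53, lay among the knockout arrays. Knockout replicate 2, at 7.11, lay between the remaining wild type arrays, which reached 7.04, and the remaining knockout arrays, which began at 7.29. The means were 6.90 ± 0.35 (SD, n = 8) in wild type and 7.44 ± 0.18 (SD, n = 8) in knockout. In a limma fit of all genes over 16 arrays with a mean per group, the genotype difference (knockout minus wild type, mean of the 4 times) was 0.55 ± 0.11 (SE), with an unadjusted p of 0.000559 and an adjusted p of 0.222. Over 14 arrays it was 0.70 ± 0.09 (SE) with a limma adjusted p of 0.00547, the wild type arrays at 6.35 to 7.04 and the knockout arrays at 7.29 to 7.64. In that fit 1 of the 6 receptors, Esr1, was called at an adjusted p under 0.05, beside 1.72% of all genes, and it was 1 of 2 receptors whose genotypes did not overlap, as was so for 1% of all genes (0.00325% and no receptor over 16 arrays). The whole 18-hour time was also left out, again after its marker genes were seen, so this result too is a description. Over these 12 arrays Esr1 was again the 1 receptor called, beside 1.49% of genes, and the difference was 0.67 with a limma adjusted p of 0.00976. Over 13 arrays, without knockout 2 weeks replicate 1 as well, it was 0.70, with 2.58% of genes called.

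Between the times, the order of the Esr1 group means ran from 7.59 in knockout at 2 weeks to 6.51 in wild type at 2 weeks. Of the 7 pairs of neighbours in that order, 2 did not overlap, namely knockout at 2 weeks from untreated knockout and wild type at 6 days from wild type at 2 weeks. The genotype difference was 0.46 untreated, 0.18 at 18 hours, 0.48 at 6 days and 1.08 at 2 weeks, where its limma adjusted p was 0.0890. Over 14 arrays it was 0.79 ± 0.22 (SE) at 18 hours, with a limma adjusted p of 0.551, so the low value at that time rested on the 2 arrays that sat with the other genotype. In wild type mice the 2-week value minus the untreated value was -0.51 ± 0.23 (SE, limma adjusted p 0.159), and in knockout mice it was 0.11 ± 0.23. The difference between these responses was 0.62, with a 95% interval from -0.09 to 1.33 and a limma adjusted p of 0.675.

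The Esr1 values moved with male-biased, podocyte, endothelial and macrophage marker means within wild type arrays, and less so within knockout arrays. The male-biased gene mean correlated with Esr1 at r = 0.80 (Spearman 0.72) over 16 arrays, which fall apart by genotype, at 0.76 within the 8 wild type arrays and at 0.49 within the 8 knockout arrays. In wild type arrays Esr1 was low where podocyte (r = -0.84), glomerular endothelial (r = -0.87) and macrophage (r = -0.82) marker means were high, while in knockout arrays these values were -0.03, -0.07 and -0.28. These are descriptions over arrays that share genotype and time. With the difference of proximal tubule and podocyte marker means as a covariate, the averaged genotype difference of Esr1 was 0.49 with a limma adjusted p of 0.764. In these bulk extracts, fewer cells of a type and less RNA per cell cannot be told apart.

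The other oestrogen receptors gave low signals. Esr2, which pairs with oestrogen receptor alpha or with itself, lay between 4.16 and 4.35 on all arrays, a range smaller than that of all but 0.306% of genes. The median over 1720 odorant and vomeronasal receptor genes, which are not known to be used in kidney, was 4.43 with a 10th to 90th percentile of 3.88 to 5.26. The Esr2 probeset thus had values like those of genes without known use in kidney, and its genotype difference was -0.02, with a 95% interval from -0.11 to 0.07 (0.0046 over 14 arrays). Gper1, at 4.86 to 5.60, and Pgr, at 4.86 to 5.56, also lay partly within that band.

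Gper1 and Pgr had their highest values in wild type mice at 2 weeks. For Gper1 the wild type values were 5.14 and 5.10 untreated, 5.10 and 4.86 at 18 hours, 5.19 and 5.07 at 6 days, and 5.27 and 5.60 at 2 weeks, while all 8 knockout arrays lay between 4.91 and 5.04. For Pgr the wild type values were 5.09 and 5.05 untreated, 5.08 and 5.05 at 18 hours, 5.28 and 5.0 at 6 days, and 5.36 and 5.56 at 2 weeks, while the knockout arrays lay between 4.86 and 5.11. At 2 weeks the genotypes did not overlap for either gene, as for 36.7% of genes. Over the 14 arrays Gper1 did not overlap between genotypes (wild type 5.07 to 5.60, knockout 4.91 to 5.04), as for 1% of genes. Over 16 arrays it did, through the wild type array left out, at 4.86. Gper1 correlated at r = -0.64 over 16 arrays with the male-biased mean by which that array was left out, so its separation is a description. The averaged genotype difference was -0.18 ± 0.06 (SE) for Gper1 and -0.19 ± 0.06 for Pgr, with limma adjusted p of 0.308 and 0.300, and over 14 arrays -0.21 and -0.18, with 0.204 and 0.332. Knockout minus wild type at 2 weeks was -0.41 ± 0.12 (SE) for Gper1 and -0.51 ± 0.12 for Pgr, with limma adjusted p of 0.142 and 0.110. The wild type response at 2 weeks was 0.32 for Gper1 and 0.39 for Pgr, with limma adjusted p of 0.112 and 0.0697, where the median over all genes was 0.13. The difference between the genotypes' responses at 2 weeks was -0.40 for Pgr, with a 95% interval from -0.77 to -0.02 and a limma adjusted p of 0.664, and -0.25 for Gper1, with one from -0.62 to 0.12.

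As a group mean, the level of dim probesets was highest at 2 weeks in both genotypes, and single arrays changed the calls. The median of the odorant and vomeronasal genes was itself 4.53 in wild type at 2 weeks and 4.59 in knockout at 2 weeks, beside 4.35 to 4.44 in the other 6 groups. At 2 weeks replicates 1 and 2 had 4.42 and 4.64 in wild type and 4.795 and 4.38 in knockout. Single arrays of the other groups had 4.31 to 4.50, so 1 array per genotype carried the higher level. In knockout at 2 weeks Gper1 had 5.0 and 5.04 and Pgr had 5.02 and 4.88, the lowest Pgr mean of the 8 groups. The 2-week array with the higher dim median had the higher value of both genes in wild type, and of Pgr only in knockout. The part of the dim level in the differences of Gper1 and Pgr was not tested. Without wild type 2 weeks replicate 1, 3 receptors were called between genotypes at 2 weeks, Esr1 at 1.24, Gper1 at -0.58 and Pgr at -0.61, with limma adjusted p of 0.0185, 0.0106 and 0.0185, in a fit that called 14.9% of all genes there. Without knockout 2 weeks replicate 2, Esr1 alone was called there, at 1.05 with a limma adjusted p of 0.0309 beside 17.4% of genes, and also in the genotype average, at 0.54 with 0.0328 beside 7.17%. Across the 16 arrays Gper1 and Pgr correlated at r = 0.87 (Spearman 0.67), and Esr1 correlated with Gper1 at -0.85 and with Pgr at -0.80, over arrays that share genotype and time.

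**Figure D2:**
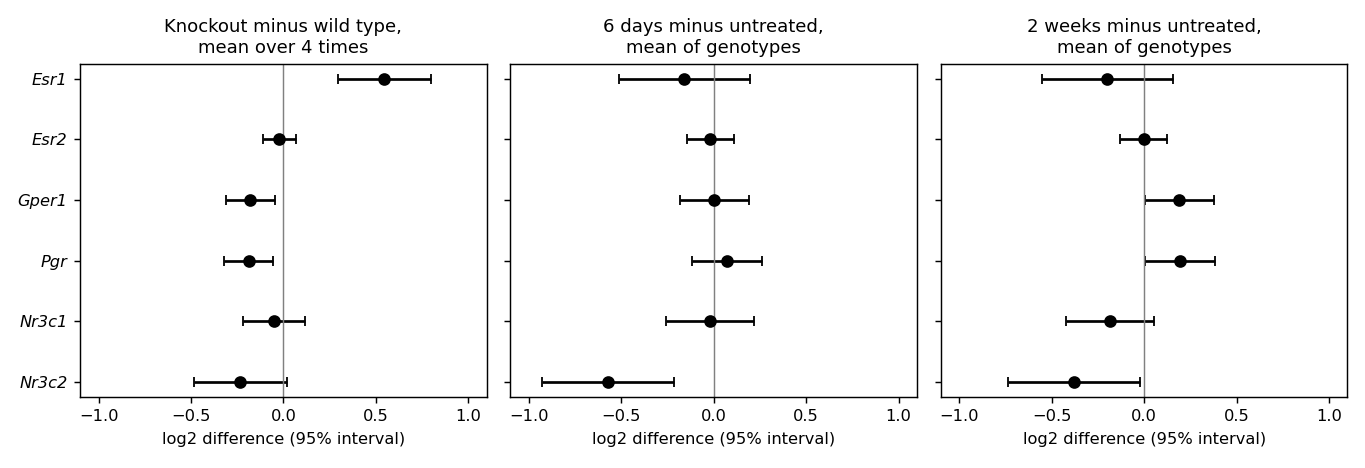
Differences of the 6 receptors in deposited log2 units (horizontal axis) with their 95% intervals from the limma fit of 16 arrays, by comparison. The averaged Esr1 genotype difference was 0.55 and the averaged 6-day response of Nr3c2 was -0.57, and no receptor passed an adjusted p under 0.05 in the comparisons plotted.

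Nr3c1, which binds corticosterone in mice, kept within a narrow span. Its values lay between 9.0 and 9.43 over all 16 arrays, a range that is smaller still in 12.5% of genes, and none of the 7 neighbouring pairs in the order of its 8 groups were apart. The group means ran from 9.34 in untreated knockout to 9.07 in knockout at 18 hours. The averaged genotype difference was -0.05 over 16 and over 14 arrays, with a 95% interval from -0.22 to 0.12 over 16, and the averaged 2-week response was -0.18 ± 0.11 (SE, limma adjusted p 0.266). With each array centred on its median, that response became -0.35 with a limma adjusted p of 0.0433.

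Nr3c2 had its highest values in untreated wild type mice, and its differences after serum were not called in the unweighted limma fit of 16 arrays. The wild type values were 9.53 and 9.16 untreated, 8.67 and 8.31 at 18 hours, 8.75 and 8.76 at 6 days, and 9.0 and 8.52 at 2 weeks. The knockout values were 8.88 and 8.79 untreated, 8.45 and 8.88 at 18 hours, 8.37 and 8.16 at 6 days, and 8.43 and 8.88 at 2 weeks. All 4 arrays at 6 days, 8.16 to 8.76, lay below all 4 untreated arrays, 8.79 to 9.53, a separation found in either direction for 11.2% of genes, while at 18 hours and 2 weeks the ranges overlapped. Averaged over genotypes, the response was -0.51 ± 0.16 (SE) at 18 hours, -0.57 ± 0.16 at 6 days and -0.38 ± 0.16 at 2 weeks, with limma adjusted p of 0.987, 0.138 and 0.147. Over 14 arrays the 18-hour response was -0.53. With only the 6-day and untreated arrays in the fit the adjusted p at 6 days was 0.0385, and with array weights it was 0.0244.

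Between untreated mice, knockout minus wild type was -0.51 for Nr3c2, with an unadjusted limma p of 0.0477 and an adjusted p of 0.957. The untreated wild type group alone thus held the top of the order, apart from its neighbour, untreated knockout. The untreated genotypes were apart in either direction for 45.9% of genes. The other 6 pairs of neighbours overlapped. The difference of the responses was 0.69 at 18 hours, with a 95% interval from -0.03 to 1.40, but 0.29 ± 0.38 (SE) over 14 arrays. At 6 days it was 0.02, with a 95% interval from -0.69 to 0.74. Nr3c2 correlated at r = 0.64 (Spearman 0.67) over 16 arrays with the mean of 15 markers of the thick limb, distal tubule and collecting duct, which ranged from 9.94 to 11.54. With the mean of the genes of the aldosterone-sensitive nephron described below it correlated at 0.69 over 16 arrays, at 0.53 within wild type and at 0.88 within knockout. With the tubule and podocyte covariate the 6-day response of Nr3c2 was -0.73 with a limma adjusted p of 0.0504.

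**Figure D3:**
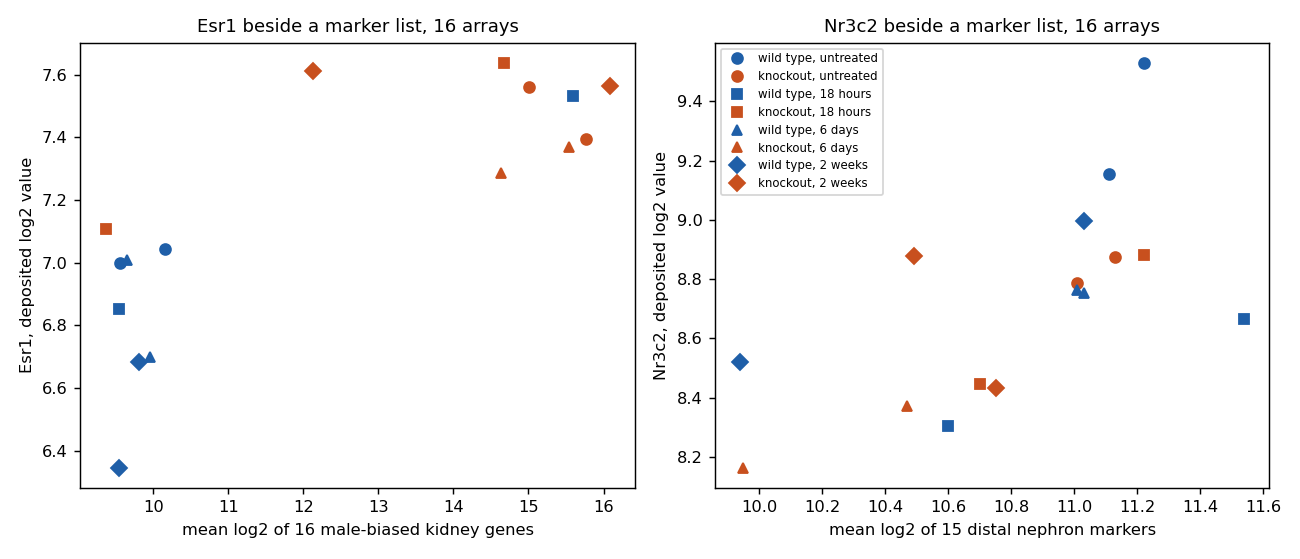
Deposited log2 value of receptors (vertical axes) against the mean log2 value of a marker list (horizontal axes), 1 point per array, with the genotypes in different colours. Nr3c2 is set against the distal nephron mean (r = 0.64 over 16 arrays), and Esr1 is set against the male-biased mean, where the points fall apart by genotype.

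In the averaged genotype comparison limma called 0 of the 6 receptors over 16 arrays, as it called 0% of all genes. Of the receptors, 3 had an unadjusted p under 0.05 there (Esr1 higher, Gper1 and Pgr lower), a level that 11.6% of all genes passed. The median difference of the 6 was -0.11, beside -0.01 over all genes. The single times called no receptor either, beside 0% of genes untreated and at 18 hours, 0.00651% at 6 days and 0.169% at 2 weeks. For the averaged responses the calls were 0 receptors at each time, beside 0% of genes at 18 hours, 0.865% at 6 days and 9.19% at 2 weeks. Limma called 0 receptors in the response of wild type mice at 2 weeks, where 7.91% of genes were called and 4 receptors had an unadjusted p under 0.05, a level passed by 30.7% of genes. No receptor and 0% of genes were called in the differences of responses, where at 2 weeks Pgr alone had an unadjusted p under 0.05, a level passed by 7.43% of genes.

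The genes whose values ran most like each receptor over the 16 arrays, by Pearson r, were as follows. Esr1 was closest to Ttll4, a tubulin ligase-like gene (0.94), Trappc9 (0.91) and Brap (0.91). Gper1 was closest to Ltk, a receptor tyrosine kinase (0.96), Cyp4f16 (0.95) and Cacna1h, a calcium channel subunit (0.94). Pgr was closest to Gpr176 (0.91), Slc17a7, a vesicular glutamate carrier (0.90), and Zxdc (0.90), and Esr2 to Prss39 (0.84), Tafa3 (0.81) and Adh4 (0.81). Nr3c1 was closest to Prdx4, a peroxiredoxin (0.92), Tsn (0.87) and Yif1b (0.85). Nr3c2 was closest to Ybx2 (0.94), Tatdn3 (0.93) and Fbxo44 (0.92). Over the means of the 8 groups these r were between 0.85 and 0.99.

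The other genes of steroid signalling were read as lists. Of the receptors related by sequence or by ligand, 9 of 11 listed were measured, among them the oestrogen-related receptors Esrrb and Esrrg and membrane progesterone receptors of the Paqr family, and the others were not analysed here. Esrrg, which drives mitochondrial genes in tubules, had 10.07, 10.10, 9.84 and 10.10 in untreated mice and 9.46, 9.65, 9.51 and 9.29 at 6 days, without overlap. Its averaged 6-day response was -0.55 ± 0.10 (SE, limma adjusted p 0.0396). At 2 weeks Esrrb (-0.57) and Paqr9 (-2.29) fell, with limma adjusted p of 0.0282 and 0.0344, 2 of 9 genes beside 9.19% of all, and the list's median was -0.27 beside 0.09 over all genes. Esrrb went from 6.43 and 6.20 untreated to 5.25 and 5.21 in wild type, and from 5.95 and 6.09 to 6.11 and 5.83 in knockout, where the values overlapped. The difference between these responses was 1.04 with a limma adjusted p of 0.619. For Paqr9 the fall was carried by 3 arrays, at 6.47 and 8.39 in wild type and 6.95 in knockout, while knockout replicate 1 had 10.03, within the untreated range of 9.99 to 10.48.

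Among 13 measured chaperones of the receptor complex, limma called 2 lower and none higher at 2 weeks averaged over genotypes, near the 9.19% of all genes called there in either direction. These were Fkbp4, an immunophilin of the mature complex (-0.78, limma adjusted p 0.0220), and Bag1, an Hsp70 cofactor (-0.82, limma adjusted p 0.0465). Neither was lower in knockout 2 weeks replicate 1. That array had 9.39 for Fkbp4, beside 9.16 to 9.61 in untreated mice, and 13.29 for Bag1, beside 12.83 to 13.14. Fkbp5, an immunophilin that glucocorticoids induce, had 7.04 and 6.86 in wild type and 8.28 and 9.36 in knockout at 2 weeks, a difference of 1.87 with a limma adjusted p of 0.0852. Among 23 coactivators and corepressors limma called 1, Ppargc1b, a coactivator of oestrogen-related receptors, lower at 2 weeks (-0.83, adjusted p 0.0214), a smaller share than that of all genes. In the genotype average neither list held a called gene over 16 or over 14 arrays.

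Of 19 classical oestrogen receptor targets, a list that holds Pgr, limma called 0 in the averaged genotype comparison over 16 arrays. There 4, with Pgr among them, were lower at an unadjusted p under 0.05, a level that 11.6% of all genes passed in either direction. The list's median was -0.09, beside -0.01 over all genes. Over 14 arrays the difference was -0.37 for Igf1, a growth factor, and -0.73 for Cited2, a regulator that binds Ep300. Over 16 arrays it was -0.28 and -0.57, each with a limma adjusted p of 0.264. In the 2 arrays left out both genes sat with the other genotype. Igf1 had 5.84 in the wild type and 6.28 in the knockout one, and Cited2 had 10.63 and 11.40. Their values over 14 arrays are therefore descriptions. After serum Ramp3, a partner of the calcitonin-like receptor, rose by 1.16 at 6 days (limma adjusted p 0.0283) from 7.29 to 7.80 in the 4 untreated arrays to 8.32 to 9.11. At 2 weeks Ramp3 (0.92), Myc (0.92) and Mybl1 (0.91) were called higher by limma, 3 of 19 genes beside 9.19% of all genes in either direction. In knockout 2 weeks replicate 1 Mybl1 had 6.145, within the untreated range of 6.055 to 6.505.

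Of 29 glucocorticoid receptor targets limma called 1 higher in knockout at 2 weeks, Klf9, a repressor of the Krüppel family, beside the 0.169% of all genes. Klf9 had 8.14 and 8.32 in wild type and 9.61 in both knockout arrays, a difference of 1.38 ± 0.16 (SE, limma adjusted p 0.0236). Without knockout 2 weeks replicate 1 it was 1.38 with a limma adjusted p of 0.167, and it stayed called in 6 of 16 fits that left out 1 array, at 1.28 to 1.47. In untreated wild type it had 9.42 and 9.44, a response of -1.20 (limma adjusted p 0.00733), and the untreated knockout arrays had 9.41 and 9.71. Of the list, 18 of 29 had a positive genotype difference at 2 weeks, with a median of 0.37 beside -0.06 over all genes. At 6 days Anxa1, an anti-inflammatory protein, rose by 2.57 averaged over genotypes (limma adjusted p 0.0496), and the list's median was 0.31 beside 0.01. At 2 weeks Pck1, an enzyme of gluconeogenesis, fell by 2.07 averaged over genotypes (limma adjusted p 0.0287), and Klf9 by 0.57. Knockout 2 weeks replicate 1 had 14.55 for Pck1, within the untreated range of 14.17 to 15.32.

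Of 20 measured targets of the mineralocorticoid receptor and genes of the aldosterone-sensitive nephron, limma called 5 lower and 1 higher at 2 weeks averaged over genotypes, where 9.19% of all genes were called in either direction. The falls were in Wnk4 (-0.79) and Wnk1 (-0.91), kinases that regulate the sodium chloride carrier, in the protease Prss8 (-1.87), in the sodium pump subunit Atp1b1 (-0.74) and in the deubiquitinase Usp2 (-1.09). Edn1, the vasoconstrictor endothelin 1, rose by 1.68, to 7.36 and 6.72 in wild type and 7.28 in knockout replicate 2, while knockout replicate 1 had 5.14, near the untreated range of 4.82 to 5.01. Wnk4 was already lower at 6 days (-1.04, limma adjusted p 0.0375). Usp2 was also called between genotypes at 2 weeks, with 8.50 and 9.06 in wild type and 10.85 and 10.48 in knockout (1.88 ± 0.26 SE, limma adjusted p 0.0306). Without knockout 2 weeks replicate 1 Usp2 had 1.70 with a limma adjusted p of 0.220, and it stayed called in 4 of 16 fits that left out 1 array. Outside the naming rule, Hsd11b2, which shields the receptor from corticosterone, had an averaged 2-week response of -0.74 with a limma adjusted p of 0.297. Sgk1, the kinase that aldosterone induces and likewise outside it, had one of 1.27 with 0.165.

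Of 18 measured enzymes that make or remove steroid ligands limma called 3 lower at 2 weeks, beside the 9.19% of all genes. Akr1c18, which inactivates progesterone, was at 13.86 and 13.18 in untreated and at 6.61 and 8.10 in 2-week wild type mice, and at 7.95 and 9.29 in untreated and 7.63 and 5.78 in 2-week knockout mice. Its averaged response was -4.04 (limma adjusted p 0.0279), and over 14 arrays it was lower in knockout by -3.83 averaged over the times (limma adjusted p 0.00204). Akr1c18 is also known to be higher in female kidney. The array labelled wild type 18 hours replicate 2 had 9.28 and the knockout one 12.47, each with the other genotype. Hsd17b4 and Hsd17b7, of the 17-beta-hydroxysteroid dehydrogenase family, fell by 0.92 and 0.63 averaged over genotypes (limma adjusted p 0.0339 and 0.0442). In knockout 2 weeks replicate 1 they had 10.57 and 7.46, within the untreated ranges of 10.18 to 10.90 and 7.14 to 7.56. Hsd11b1, which regenerates corticosterone, had a genotype average of 1.52 with a limma adjusted p of 0.273. It is 1 of the 16 male-biased genes by which the 2 arrays were left out. Its value of 1.90 over 14 arrays is therefore a description.

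**Figure D4:**
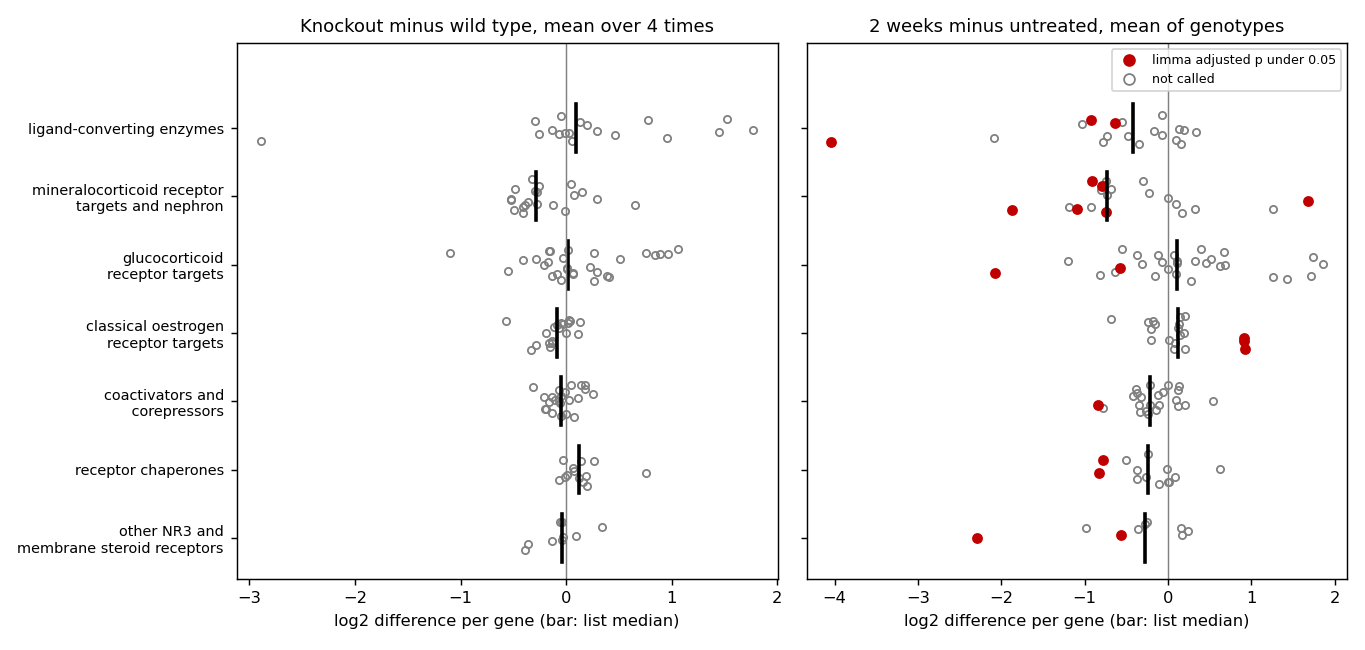
Differences in deposited log2 units (horizontal axes), 1 point per measured gene of 7 lists of steroid signalling, with the list median as a bar and genes with a limma adjusted p under 0.05 filled. In the genotype average over 16 arrays no gene is filled, and at 2 weeks the mineralocorticoid list had its median at -0.74, beside 0.09 over all genes.

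Tubule markers also differed at 2 weeks, and the list calls changed with single arrays. At 2 weeks 10 of 14 proximal tubule markers were called lower and none higher (list median -1.78), their mean being 13.35 and 14.37 in wild type, 14.37 in knockout replicate 2 and 16.14 in knockout replicate 1. With the tubule and podocyte covariate 0 of the 19 list genes called in the averaged 2-week response and 0 of the 2 called between genotypes at 2 weeks stayed called, and all 4 called at 6 days did. All 19 kept their direction, and 10 stayed within 1.5 times their log2 difference, among them Akr1c18 (-4.17), Wnk4 (-1.01), Usp2 (-0.79), Esrrb (-0.63) and Klf9 (-0.53). Both genotype differences did too, Klf9 at 1.34 and Usp2 at 1.57, while Paqr9 (-0.72), Edn1 (0.55), Prss8 (-0.74) and Pck1 (-1.17) were among the 9 that moved further. Without untreated knockout replicate 2, 0 of the 19 and 0 of the 4 stayed called, and without untreated wild type replicate 2, 1 and 0 did. Over 14 arrays 10 of the 19, 0 of the 4 and 1 of the 2 (Klf9, adjusted p 0.0379 in limma) stayed called, and Usp2 had 0.0608.

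Over those 14 arrays 10 list genes were called in the genotype average, where 1.72% of all genes were. Beside Igf1, Cited2 and Akr1c18 these were Klf9 (0.48), Angptl4 (1.15), Bcl6 (1.23) and Fam107a (-1.60) of the glucocorticoid list, Usp2 (0.74) and Kcnj10 (-0.70) of the mineralocorticoid list, and H6pd (0.64), which supplies the cofactor of Hsd11b1. Angptl4, Kcnj10 and H6pd were named after their values were seen. Igf1, Cited2, Akr1c18 and Bcl6 sat with the other genotype in the 2 arrays left out, Bcl6 at 8.02 in the wild type and 6.74 in the knockout one. Fam107a had 10.81 and 12.94 there, the knockout value lying above all other arrays. The values of all 10 genes over 14 arrays are therefore given as descriptions. The podocyte list had a median of -0.85 in that fit, with 1 of 13 called lower, and its part in these differences was not tested.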

How the data were processed

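The deposited table holds log2 values of 72688 probesets on 16 arrays, summarised by the authors before deposit with Affymetrix Expression Console and Transcriptome Analysis Console, per the submitters' processing notes. The sources used here do not state versions, summarisation or normalization. Values ran from 2.22 to 19.93 and array medians from 5.57 to 5.90. Since 152 genes had a mean above 16, more than a 16-bit scanner gives, an unstated transformation is present and differences are in deposited log2 units. The number of arrays limits the precision.

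Probesets of 1 gene (31216) were used, 612 of them joined from synonyms of 1 Entrez gene, Gper1 among them. Those of several genes (1534) or with no symbol (39938) were left out, and 827 symbols were updated. The brightest probeset per gene over 16 arrays left 30743 genes. Limma 3.58.1 (R 4.3.3) fitted a mean for each of 8 groups with an intensity trend (8 residual degrees of freedom). Benjamini-Hochberg adjustment ran over all genes in a comparison, with calls at adjusted p under 0.05. The labels name separate mice, so p-values measure spread between mice, at 2 per group. No set test was run. The procedure was tested on simulated data. Of 50 genes changed by 0.5 log2 units it recovered 68% in the genotype average and 26% in the averaged 2-week response. In the untreated genotype difference it recovered 20%. False calls were 17, 7 and 12 in these comparisons. A difference of that size can therefore go uncalled.

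The members and gene lists were chosen with earlier results of these data known. Beside the members, the rule named per list up to 4 genes with the largest genotype average and up to 4 with the largest averaged response, called ones first, and the 3 genes most alike each member, leaving out predicted transcripts, pseudogenes, small RNAs, odorant receptors and antigen receptor segments. Other genes called were named after their values were seen. Replicate numbers were not taken to pair the mice, as the labels state no pairing. Of 28 pairs of groups, 11 had deviations correlated over 0.1 (range -0.68 to 0.59), which cannot settle whether replicates shared a batch. In all 32 alternatives were run, on normalization, filters, probesets, moderation, weights, block, covariate and arrays. Those over 14, 13 and 12 arrays, with 1 symbol as printed, and with all probesets were chosen after seeing the data.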

Additional observations from a re-analysis of the deposited data

How the results depend on the processing

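No receptor was called in any comparison of the limma fit of 16 arrays described above, so no call of that fit could be lost or reversed. Each of the 102 differences of a receptor had a value in 29 to 32 alternatives, and 50 of them, none called in any alternative, had the other sign in 1 to 7. The counts of receptors called changed as follows. In the genotype average 1 receptor, Esr1, was called over 14, over 13 and over 12 arrays, and leaving out 1 array gave 0 to 1. In the genotype difference at 2 weeks leaving out 1 array gave 0 to 3, and in the wild type response at 2 weeks 0 to 3, the 3 without wild type 2 weeks replicate 1 being Gper1 (0.48), Pgr (0.49) and Nr3c2 (-0.82). In the averaged 6-day response 1 receptor, Nr3c2, was called with array weights and 1 with only the groups compared. In the averaged 2-week response 1 receptor, Nr3c1, was called with median centring, and leaving out 1 array gave 0 to 1, the 1 being Gper1 (0.27, limma adjusted p 0.0264) without wild type 2 weeks replicate 1. The cause was not tested. With the replicate number as a block, 0 receptors were called in all comparisons, and the Esr1 genotype average was 0.55 with a limma adjusted p of 0.282. The genes called at 2 weeks between genotypes were 52 over 16 arrays, 24 with the replicate block, and 0 with array weights, with the tubule covariate and with only the groups compared, while leaving out 1 array gave 0 to 5344. For the averaged 6-day response they were 266, with 117 under quantile normalization and 1922 under array weights, and for the averaged 2-week response 2826, with 1584, and 4438 under median centring. Esr2, Gper1 and Pgr lay near the signal of genes without known use in kidney, which limits what their probesets can show.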
